A study of Homo sapiens with 14 samples.

Results

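A set of 10 regulators of epithelial-mesenchymal transition (EMT) were followed by gene symbol across all 14 arrays of a gastric carcinoma cell line. They are 5 factors that drive cells toward the mesenchymal state (SNAI1, SNAI2, ZEB1, ZEB2 and TWIST1) and 5 that hold the epithelial state (ESRP1, ESRP2, GRHL2, OVOL1 and KLF5). Of the 10 genes, 9 had a probe set with a single symbol among the 18417 genes of the array, and ESRP1 was not analysed here. Of these 9, 6 passed the filter on low values (a mean log2 level of at least 5.90, which kept 11050 genes). They were SNAI1, TWIST1, ESRP2, GRHL2, OVOL1 and KLF5, and SNAI1 passed only through the arrays of the transgenic line, since its mean on the 9 parental arrays was 5.80. SNAI2, ZEB1 and ZEB2 lay below the filter, so their values are weaker evidence. The means of SNAI2 and ZEB1 stood at percentiles 32.8 and 34.4 of all genes, under a filter at percentile 40. ZEB2, at percentile 4.7, was close to the dim end of the array.

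The line is named MKN28 in the sample labels and MKN74 in the study's text, and all arrays carry RNA of this line or of its derivative Snai1ER. Snai1ER cells carry a transgene that fuses Snai1 to an estrogen receptor part, so that 4-hydroxytamoxifen (4-OHT) switches the protein on. The groups were Snai1ER cells in 20 ng/mL 4-OHT for 2 or 4 days with and without ANGPTL4 knockdown, untreated Snai1ER cells at day 4, parental cells in 1% oxygen (hypoxia) for 1 or 2 days with and without knockdown, parental cells in 10 ng/mL TGFβ1 for 1 or 2 days with and without knockdown, and untreated parental cells at day 2. Each condition had 1 array, no untreated knockdown array was analysed here, and whether the line or the transgene was cloned is not given in the sources used here. The labels do not give the reagent used for knockdown in parental cells and name a short hairpin against ANGPTL4 for the Snai1ER cells. All cultures were seeded sparsely so that separate colonies formed.

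In EMT, SNAI1, SNAI2 and the ZEB proteins bind E-box motifs in promoters of junction genes such as CDH1 (E-cadherin) and repress them. TWIST1, a basic helix-loop-helix factor, acts in the same program. On the other side, ESRP1 and ESRP2 are splicing regulators that keep the epithelial isoforms of genes such as FGFR2, while GRHL2, OVOL1 and KLF5 are transcription factors of epithelial tissues. ZEB1 and GRHL2 are known to repress each other, as are the ZEB genes and the miR-200 family of microRNAs. SNAI1 protein is short-lived and is controlled largely after transcription, which RNA levels do not show.

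The sequences behind the ZEB1 part of this circuit are shown because ZEB1 was the endogenous driver with the greatest spread between Snai1ER arrays. The RefSeq promoter table of GRCh38.p14, with windows of 250 bases before to 50 after a start site, held 7 windows for ZEB1 and 2 of them contained the E-box CAGGTG (or CACCTG, the same motif on the other strand). The window at chr10:31318966-31319265 (plus strand) held 3 such motifs, printed in capitals. Of 35116 windows in the table, 20.6% held at least 1 and 0.635% held at least 3. The single ZEB2 window and both KLF5 windows contained 0. A match is a description of the letters and not a site of binding.
ZEB1 promoter window: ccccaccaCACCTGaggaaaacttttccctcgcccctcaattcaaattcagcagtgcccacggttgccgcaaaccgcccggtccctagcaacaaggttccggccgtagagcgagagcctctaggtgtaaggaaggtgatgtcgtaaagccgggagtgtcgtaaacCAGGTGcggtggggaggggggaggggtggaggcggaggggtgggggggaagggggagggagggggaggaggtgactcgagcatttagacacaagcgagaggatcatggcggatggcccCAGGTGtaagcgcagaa

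The miR-200 family falls into groups by its seed, bases 2 to 8 of the mature microRNA, which pairs with target RNA and is printed in capitals. The first 3 share AAUACUG and the other two share AACACUG. The sequences are from RefSeq (GRCh38.p14).
hsa-miR-200b-3p: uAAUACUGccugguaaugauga
hsa-miR-200c-3p: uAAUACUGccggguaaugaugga
hsa-miR-429: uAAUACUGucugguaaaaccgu
hsa-miR-200a-3p: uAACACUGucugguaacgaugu
hsa-miR-141-3p: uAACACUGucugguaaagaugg

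The array carries probe sets for the precursor genes of all 5, and none passed the filter on low values. Their levels ranged between 3.68 and 4.16 for MIR200A, between 5.10 and 5.59 for MIR200B, between 4.90 and 5.82 for MIR200C, between 4.03 and 4.43 for MIR141 and between 5.20 and 6.01 for MIR429. An array of this kind does not measure mature microRNAs, so these levels carry no statement on them.

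Values are log2 levels after the deposited arrays were brought to 1 shared distribution (quantile normalization). As deposited, the 2 TGFβ1 arrays without knockdown had median log2 levels of 5.23 and 5.19, while the medians of the remaining 12 lay between 6.0 and 6.16. Values as deposited are therefore given for the members' differences that use those arrays. The day 1 hypoxia array with knockdown also stood apart, with a spread of 0.72 (SD over genes of its log2 difference from the other arrays) where the remaining arrays had 0.27 to 0.56. Levels of different genes are not compared, since each probe set has a brightness of its own, and in cultures read in bulk fewer cells of a type and less RNA per cell cannot be told apart. The line had the markers of gastric epithelium, with 7 of 10 past the filter, while 1 of 6 fibroblast, 0 of 3 endothelial and 1 of 4 leukocyte markers passed. ANGPTL4 itself was below the filter, at 5.08 to 5.39 on the 6 treated arrays with knockdown and 4.97 to 5.37 on the 6 without, so the knockdown could not be seen on these arrays.

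The level of SNAI1 told the transgenic line apart from the parental line. Its probe set reads the Snai1ER transcript as well as the cell's own SNAI1. It stood at 9.78 and 8.74 in 4-OHT with knockdown (days 2 and 4), at 9.55 and 9.55 in 4-OHT without knockdown, and at 9.52 in untreated Snai1ER cells. In parental cells it stood at 5.82 and 6.04 in hypoxia with knockdown (days 1 and 2), at 6.07 and 6.06 in hypoxia, at 5.61 and 5.48 in TGFβ1 with knockdown, at 5.64 and 5.58 in TGFβ1, and at 5.93 in untreated cells. All 5 Snai1ER arrays lay far above all 9 parental arrays, and 4-OHT moved the level by 0.03 on either day. These readings cannot separate the transgene from the endogenous gene.

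**Figure D1:**
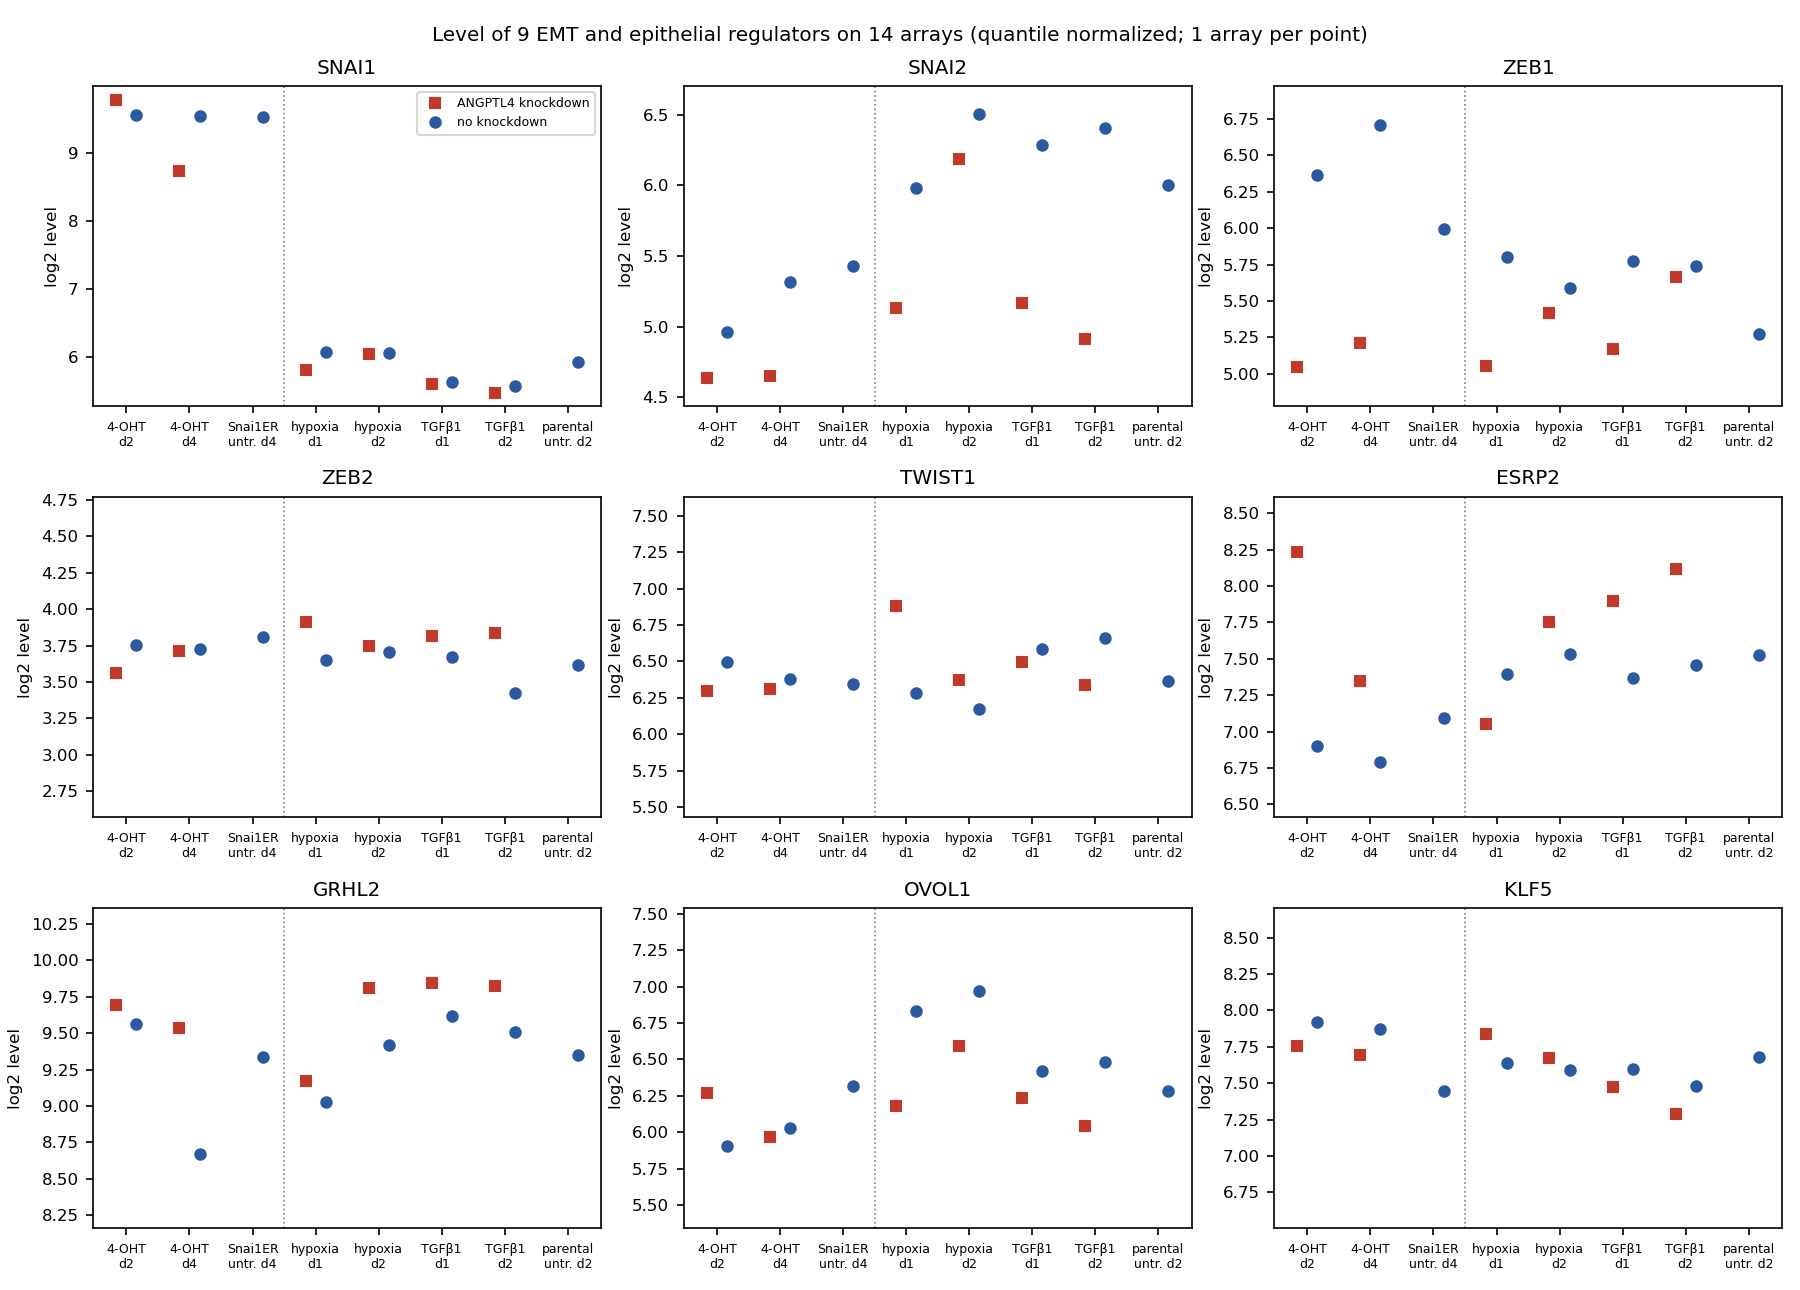
Log2 level (vertical axis, quantile normalized) of the 9 measured regulators on 14 arrays, 1 point per array, with Snai1ER arrays left of the dotted line and parental arrays right of it. Red squares are arrays with ANGPTL4 knockdown and blue circles arrays without. SNAI1 separates the lines (8.74 to 9.78 against 5.48 to 6.07), and ZEB1 is highest in 4-OHT without knockdown (6.37 and 6.71).

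The untreated Snai1ER array read higher for ZEB1 than the untreated parental array, without any 4-OHT. Against the untreated parental array, the untreated Snai1ER array had 2 of 9 members at least 1.5-fold apart. These were SNAI1, higher by 3.60 on the log2 scale (12.1-fold), and ZEB1 with 5.99 in Snai1ER cells and 5.27 in parental cells, higher by 0.72 (1.65-fold). Of the members past the filter 1 of 6 was past this fold, against 13.2% of all genes that passed the filter and 10.7% of all genes on the array. That member was SNAI1, which passed the filter through the same transgenic arrays, so nothing is read from its call, and without it the count was 0 of 5. There is 1 array per line and the days differ (4 and 2), so no test was possible and line and day cannot be told apart. SNAI2, the close relative of SNAI1, was just inside the 1.5-fold bound with 5.43 in Snai1ER cells and 6.0 in parental cells, a log2 difference of -0.57 (1.48-fold). ESRP2 had 7.09 in Snai1ER cells and 7.53 in parental cells, a difference of -0.43, and the remaining members differed by -0.23 to 0.19.

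Some genes around these regulators were past the fold as well. Of the 5 mesenchymal genes past the filter 2 were higher and 1 lower in untreated Snai1ER cells. VIM (vimentin, an intermediate filament of mesenchymal cells) was higher by 2.30 and FN1 (fibronectin, a matrix protein) by 0.87. S100A4, a calcium-binding protein of motile cells, had a difference of -0.87. VIM lay at 4.31 to 5.73 on the parental arrays, below the filter level. Like SNAI1, VIM passed the filter only through the Snai1ER arrays, so nothing is read from its call. Of 19 epithelial genes that SNAI and ZEB proteins repress, 3 were lower and 0 higher, where 898 of all 11050 genes were lower, and the median difference was -0.17 against 0.03 over all genes that passed the filter. As deposited 2 were lower. CLDN1 and CLDN4, claudins of tight junctions, had differences of -0.80 and -0.68. CDH1 itself, named here although it met no rule, lay between 10.5 and 11.4 on all 14 arrays. Of 11 other epithelial factors past the filter, GRHL1, a relative of GRHL2 (-1.41), and EHF, an epithelial ETS factor (-1.17), were lower and 1 was higher. GRHL2 was 9.34 in Snai1ER cells and 9.35 in parental cells. Of the 14 partners that SNAI and ZEB proteins use for repression, 1 was higher and 0 lower. This was LOXL2, a lysyl oxidase known to bind and stabilise SNAI1 protein, with a difference of 0.78. LOXL2 lay at 5.37 to 5.85 on the parental arrays. It too passed the filter only through the Snai1ER arrays, so nothing is read from its call. FGFR2, whose exons ESRP proteins select, was lower (-0.60).

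Treatment moved no member past 1.5-fold on both of its days. With 4-OHT the count was 0 of 9, against 3.07% of all genes (3.54% of those past the filter). In hypoxia it was 0 of 9 against 3.89% (4.98%), and in TGFβ1 0 of 9 against 7.29% (5.74%). The hypoxia and TGFβ1 comparisons share their untreated array, so a deviation of that array enters both. With 1 array per condition none of these differences carries a test.

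With 4-OHT, ZEB1 and GRHL2 were past 1.5-fold on day 4 alone. ZEB1 stood at 6.37 (day 2) and 6.71 (day 4) in 4-OHT and at 5.99 in untreated Snai1ER cells, differences of 0.37 and 0.72. GRHL2 differed on day 4 in the other direction, with 8.67 in 4-OHT and 9.34 in untreated cells (-0.67), but on day 2 the difference was 0.22. OVOL1 had differences of -0.41 and -0.29, SNAI2 of -0.47 and -0.11, ESRP2 of -0.19 and -0.30 and KLF5 of 0.47 and 0.42. ZEB2 and TWIST1 differed by -0.08 to 0.15. Around them, ST14, the epithelial protease matriptase, fell (differences of -1.35 and -1.86), as did CLDN1 (-1.38 and -0.75) and GRHL3, a further relative of GRHL2 (-1.26 and -1.74). LOXL2 rose by 1.11 and 1.49, but it passed the filter only through the Snai1ER arrays, so nothing is read from its call. None of 7 other EMT-inducing factors past the filter passed the fold.

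In hypoxia, OVOL1, a zinc finger factor that represses ZEB1 in epithelia, was the member nearest the fold. It stood at 6.83 and 6.97 (days 1 and 2) in hypoxia and at 6.28 in untreated cells, differences of 0.55 and 0.69. ZEB1 differed by 0.53 and 0.31, SNAI2 by -0.02 and 0.50, and SNAI1 by 0.15 and 0.13. GRHL2 differed by -0.33 on day 1 and 0.06 on day 2, and the others by -0.19 to 0.09. Among the other KLF factors, 3 of 11 rose in hypoxia, KLF7 by 1.80 and 1.79 and KLF12 by 0.68 and 1.01 among them, and 0 fell, while KLF5 differed by -0.04 and -0.09. Of 11 other epithelial factors 1 fell, GRHL3 (-0.84 and -0.76), and 1 rose, KLF4, which acts in gut epithelium (0.59 and 0.78). MUC1, a mucin, rose by 0.81 and 0.62, and KRT19, an epithelial keratin, by 0.71 and 0.79.

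In TGFβ1 the direction of several members depended on how the arrays were scaled. On the shared distribution, ZEB1 stood at 5.77 and 5.74 (days 1 and 2) in TGFβ1 and at 5.27 in untreated cells, differences of 0.50 and 0.46. As deposited, the same differences were -0.35 and -0.43. SNAI2 differed by 0.28 and 0.41 (-0.46 and -0.34 as deposited), TWIST1 by 0.22 and 0.30 (-0.46 and -0.39) and OVOL1 by 0.14 and 0.20 (-0.57 and -0.53). SNAI1 was lower on both scales, with -0.29 and -0.35 here and -1.15 and -1.25 as deposited. GRHL2 differed by 0.26 and 0.15 (0.02 and -0.04), ESRP2 by -0.16 and -0.07 (-0.73 and -0.63), KLF5 by -0.08 and -0.20 (-0.61 and -0.75) and ZEB2 by 0.05 and -0.19 (-0.61 and -0.84). As deposited, 3 of the 6 members past the filter (SNAI1, ESRP2 and KLF5) fell past 1.5-fold, where 32.7% of genes past the filter passed it. No direction is given for members whose sign turned. Of 19 epithelial genes that SNAI and ZEB proteins repress, 1 fell, CLDN4 (-1.07 and -0.96), and 0 rose. As deposited 7 of the 19 fell and 0 rose, where 3565 of 11050 genes fell. Of 5 mesenchymal genes, 3 fell and 1 rose. VIM (-1.19 and -1.28), S100A4 (-1.77 and -1.78) and ACTA2, smooth muscle actin (-0.63 and -0.83), were lower and FN1 (1.38 and 0.97) was higher. VIM lay below the filter level on every parental array, so its fall is weaker evidence.

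**Figure D2:**
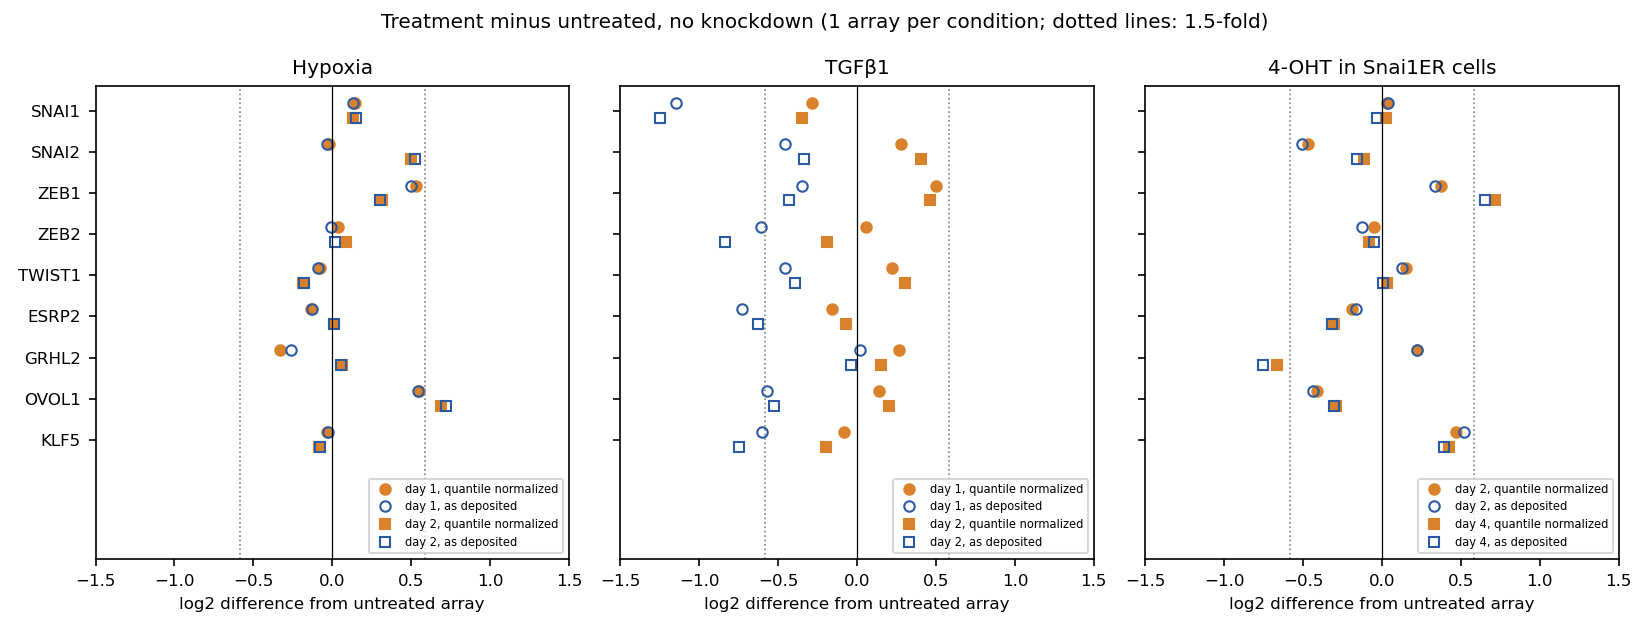
Log2 difference between each treated array and its untreated array (horizontal axis) for the 9 members without knockdown, in hypoxia, TGFβ1 and 4-OHT. Filled symbols are quantile normalized and open symbols as deposited, circles the earlier day and squares the later, and dotted lines mark 1.5-fold. The open symbols of TGFβ1 lie left of the filled ones for all 9 members (-1.15 and -1.25 against -0.29 and -0.35 for SNAI1).

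Hypoxia and TGFβ1 could be set against each other over 8 arrays (4 each, with day and knockdown as terms), without an untreated array. The 4 arrays of a treatment differ in day and knockdown and are not replicates, so the SDs below include those differences. The p-values rest on 4 residual df and measure the spread left after additive terms for day and knockdown. Here 0 of 6 members past the filter passed the test, against 5.08% of genes past the filter (561 of 11050). At an unadjusted limma p under 0.05 it was 23.2% (2561 genes). One of the 6, SNAI1, is dim on these arrays, since its parental mean of 5.80 lies below the filter level and it was tested only through its Snai1ER arrays. Its level was 5.82, 6.04, 6.07 and 6.06 on the hypoxia arrays (mean 6.0 ± 0.12, SD). It was 5.61, 5.48, 5.64 and 5.58 on the TGFβ1 arrays (5.58 ± 0.07). The difference was 0.42 (SE 0.12, limma with Benjamini-Hochberg adjustment over 11050 genes, adjusted p = 0.0929). As deposited it was 0.88 (adjusted p = 0.0756). OVOL1 averaged 6.64 ± 0.35 in hypoxia and 6.29 ± 0.20 in TGFβ1, a difference of 0.35 with a 95% interval of 0.02 to 0.67 (limma adjusted p = 0.190). GRHL2 averaged 9.36 ± 0.34 in hypoxia and 9.70 ± 0.16 in TGFβ1, a difference of -0.34 with an interval of -0.71 to 0.03. The differences of KLF5, ESRP2 and TWIST1 were 0.23, -0.28 and -0.09. As deposited, the differences were 0.73 for OVOL1, -0.29 for GRHL2, 0.44 for KLF5, -0.01 for ESRP2 and 0.23 for TWIST1, whose sign turned. Of the other KLF factors 2 of 11 were called higher in hypoxia than in TGFβ1, KLF7 by 1.38 and KLF12 by 1.31, and of 11 other epithelial factors 2, KLF4 by 1.13 and the ETS factor ELF3 by 1.12.

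**Figure D3:**
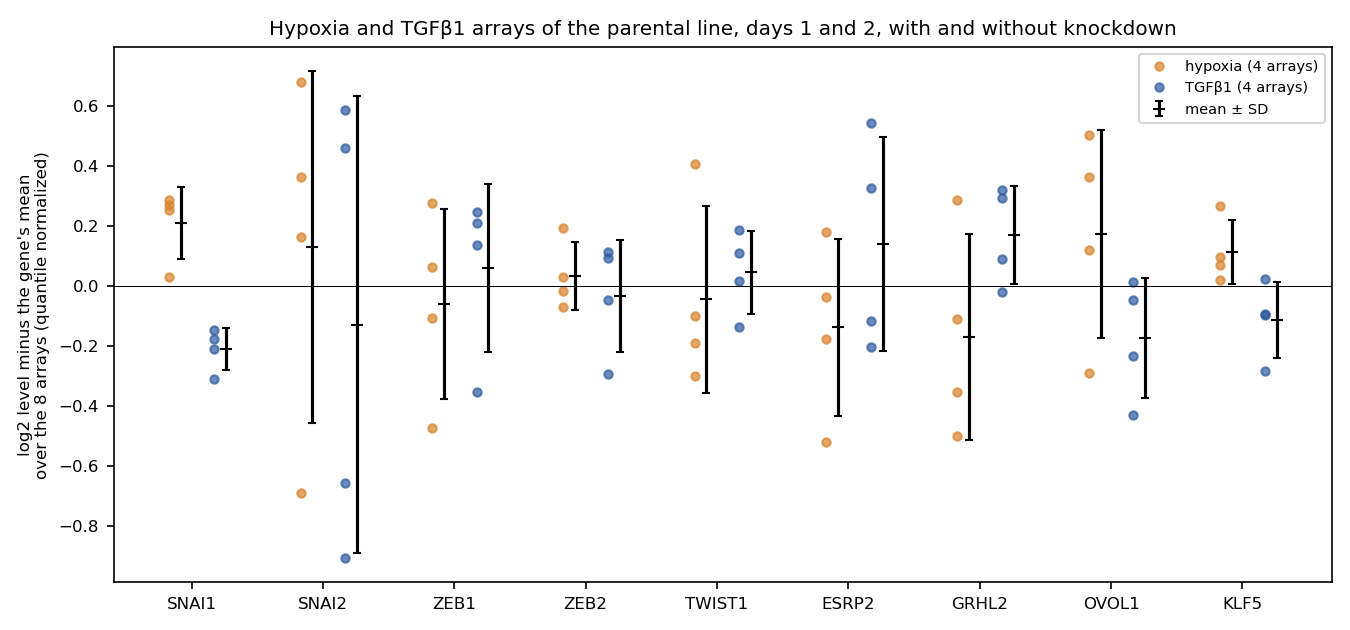
Log2 level minus the gene's mean over the 8 parental treated arrays (vertical axis, quantile normalized) for the 9 members, with hypoxia in orange left of TGFβ1 in blue and bars giving the mean ± SD over 4 arrays. SNAI1 lay at 5.82 to 6.07 in hypoxia and at 5.48 to 5.64 in TGFβ1, and did not pass the adjusted test.

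With ANGPTL4 knockdown, SNAI2 and ZEB1 read lower on every pair of arrays on the shared distribution, and neither passed the adjusted test. Pairs share line, treatment and day and differ in knockdown, and there are 6 of them. Of the 6 members past the filter, 0 passed, against 0.878% of genes past the filter (97 of 11050, with 87 lower and 10 higher). At an unadjusted limma p under 0.05 it was 19% (2103 genes, 1576 of them lower). How many genes kept the same sign over all 6 pairs was not counted. Nothing in the labels says whether the pairs came from separate cultures, so the p-values measure the spread between these 6 pairs. SNAI2 had 5.13 and 6.19 in hypoxia with knockdown (days 1 and 2) and 5.98 and 6.50 in hypoxia without. It had 5.16 and 4.91 in TGFβ1 with knockdown and 6.28 and 6.41 without. In Snai1ER cells it had 4.64 and 4.65 in 4-OHT with knockdown (days 2 and 4) and 4.96 and 5.32 without. The level with knockdown was the lower one in 6 of 6 pairs, on both scales. The mean difference was -0.80 (SE 0.17, limma over all 18417 genes, adjusted p = 0.0698), and -0.47 as deposited (adjusted p = 0.224). Since SNAI2 lay below the filter, it entered only this fit without a filter, in which 0.581% of genes were called.

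ZEB1 followed SNAI2 in sign but spread unevenly over the pairs. It had 5.04 and 5.21 in 4-OHT with knockdown (days 2 and 4) and 6.37 and 6.71 in 4-OHT without, which put both knockdown arrays below the untreated Snai1ER array at 5.99. It had 5.05 and 5.42 in hypoxia with knockdown and 5.80 and 5.59 without, and 5.17 and 5.66 in TGFβ1 with knockdown and 5.77 and 5.74 without. The mean difference was -0.74 (SE 0.20, limma without a filter, adjusted p = 0.120), and -0.35 as deposited (adjusted p = 0.440). It was lower in 6 of 6 pairs on the shared distribution and in 4 of 6 as deposited, where the TGFβ1 pairs read 0.31 and 0.86. The difference averaged -1.41 over the 2 Snai1ER pairs and -0.40 ± 0.33 (SD, n = 4) over the parental pairs, and the interaction was -1.01 (95% interval -1.62 to -0.40, limma adjusted p = 0.282). As deposited, the interaction was -1.44 (limma adjusted p = 0.335), with -1.31 over the Snai1ER pairs and 0.13 ± 0.60 over the parental pairs. In the fit without a filter, 7 of 18417 genes passed this test of the difference between lines (0.038%, and 1868 at an unadjusted p under 0.05). Of the 11050 genes past the filter 0 passed (0%, and 1178 at an unadjusted p under 0.05), the 6 members included.

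By the fold rule on the shared distribution, 1 of 9 members was shifted by knockdown in 4-OHT and in TGFβ1, and 0 of 9 in hypoxia. In 4-OHT it was ZEB1, which fell 2.50-fold and 2.82-fold, against 9.67% of genes past the filter and 6.96% of all genes. In TGFβ1 it was SNAI2, which fell (-1.12 and -1.49, and -0.30 and -0.69 as deposited), against 5.84% and 6.26%. As deposited SNAI2 did not pass the rule, since day 1 was 1.23-fold. On that scale SNAI1 (0.91 and 0.87), ZEB2 (0.73 and 0.97) and ESRP2 (1.07 and 1.20) rose past it, where 41.2% of all genes passed it. In hypoxia the background was 4.43% of genes past the filter and 3.24% of all genes. Among partner genes, LOXL2 fell with knockdown in 4-OHT (-0.89 and -1.86). LOXL2 passed the filter only through the Snai1ER arrays, so nothing is read from this call. PRMT5, a methyltransferase that SNAI1 recruits, fell in hypoxia (-0.90 and -0.68) and in TGFβ1 (-0.75 and -0.65), where as deposited no gene of that list fell. S100A4 fell in 4-OHT (-2.61 and -3.61) and in hypoxia (-0.76 and -1.58). Some epithelial genes fell with knockdown as well. Of the 19 repressed genes 2 fell in hypoxia, CLDN7 (-0.84 and -0.75) and ST14 (-0.85 and -1.02), where 416 of 11050 genes fell. In 4-OHT 1 of the 19 fell, CLDN1 (-0.98 and -0.80), where 826 of 11050 genes fell. No result about this list is read from these counts. The keratins KRT8 (-2.38 and -0.78) and KRT18 (-0.90 and -1.02) fell in hypoxia. In TGFβ1, KRT8, KRT18 and CLDN1 fell on the shared distribution but were not past the fold as deposited. CLDN4 (0.68 and 0.94) and VIM (0.89 and 0.99) rose there. As deposited, 6 of the 19 repressed genes rose with knockdown in TGFβ1 and 0 fell, where 3047 of 11050 genes rose. VIM lay below the filter level on these parental arrays, so its rise is weaker evidence.

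Of the epithelial members, GRHL2 and ESRP2 read higher with knockdown on most pairs, and neither passed the test. GRHL2 had 9.17 and 9.81 in hypoxia with knockdown and 9.03 and 9.42 without, 9.85 and 9.82 in TGFβ1 with knockdown and 9.62 and 9.51 without, and 9.70 and 9.53 in 4-OHT with knockdown and 9.56 and 8.67 without. It was the higher in 6 of 6 pairs, by 0.35 on average (SE 0.13, limma adjusted p = 0.207), although as deposited the day 1 hypoxia pair gave -0.07. ESRP2 had 8.23 and 7.35 in 4-OHT with knockdown and 6.90 and 6.79 without, and 7.90 and 8.12 in TGFβ1 with knockdown and 7.37 and 7.46 without. In hypoxia it had 7.05 and 7.75 with knockdown and 7.39 and 7.54 without. It was higher in 5 of 6 pairs, by 0.49 on average (SE 0.20, limma adjusted p = 0.219), and in 4-OHT the later day fell just short of the 1.5-fold bound (1.47-fold). OVOL1 had a mean difference of -0.23 (limma adjusted p = 0.435), with all 4 parental pairs lower and the 2 Snai1ER pairs at 0.36 and -0.06. As deposited, its TGFβ1 pairs read 0.57 and 0.33. KLF5, SNAI1 and TWIST1 had mean differences of -0.06, -0.16 and 0.02. As deposited, the mean differences were 0.65 for ESRP2, 0.44 for GRHL2, 0.08 for OVOL1, 0.07 for KLF5, 0.20 for SNAI1 and 0.29 for TWIST1, so the signs of OVOL1, KLF5 and SNAI1 turned. ZEB2, which has 2 probe sets and is the dimmest against all genes, differed by 0.11 (0.29 as deposited).

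**Figure D4:**
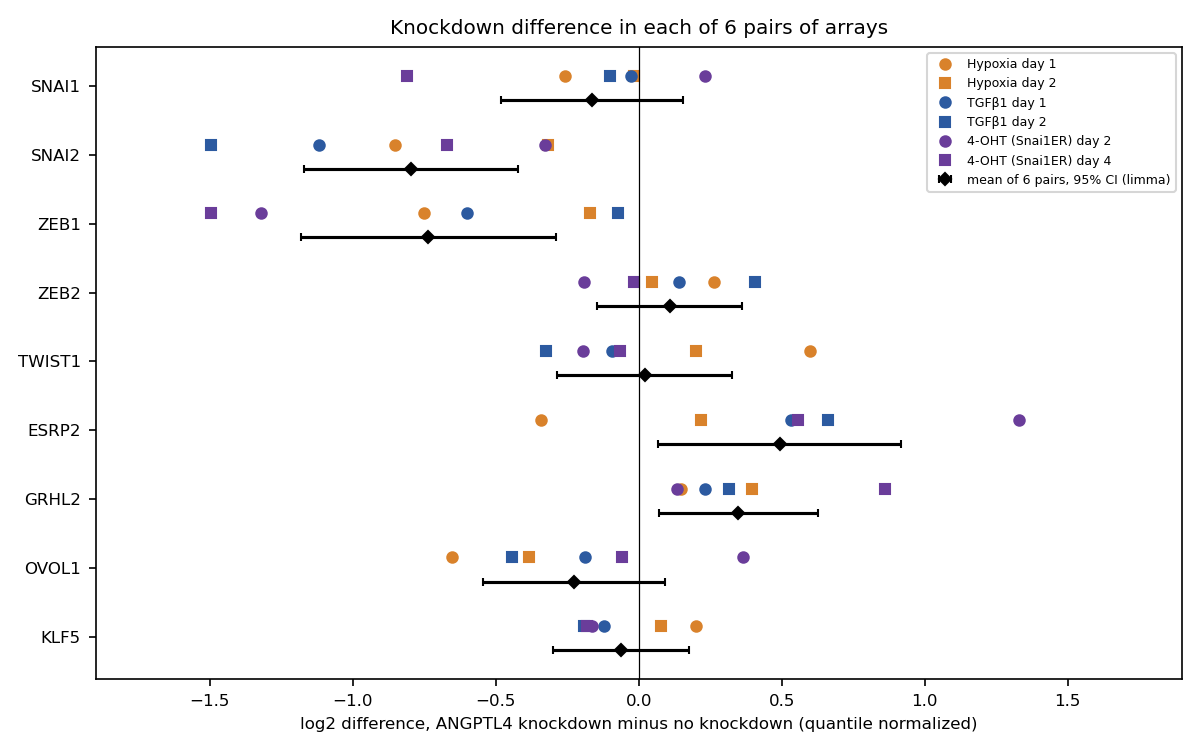
Log2 difference between the arrays with and without ANGPTL4 knockdown (horizontal axis, quantile normalized) in each of 6 pairs for the 9 members, coloured by treatment, with circles for the earlier and squares for the later day. Black diamonds and bars are the mean and 95% confidence interval of limma without a filter. SNAI2 and ZEB1 lie left of zero and GRHL2 right of zero in every pair, and none passed the adjusted test. As deposited, ZEB1 was lower in 4 of 6 pairs and GRHL2 higher in 5 of 6.

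Members that moved alike are given as a description, since arrays share lines, treatments and scaling. Across 14 arrays, SNAI2 and OVOL1 had a Pearson r of 0.79 (Spearman 0.80), ESRP2 and GRHL2 one of 0.71 (0.68), and ZEB1 and ESRP2 one of -0.63 (-0.57). On the 9 parental arrays alone, the r of ZEB1 with ESRP2 was 0.10, and that of ESRP2 with GRHL2 was 0.79. Among all genes past the filter, those closest to SNAI1 on the 9 parental arrays were GDF15, a stress-induced secreted factor (r 0.99), VEGFA, the vascular growth factor (0.99), and RIPK4, a kinase of epithelial differentiation (0.97). Leaving out the 2 arrays farthest from the median gave 0.99, 0.99 and 0.98. Arrays of both hypoxia and TGFβ1 remained in that check. SNAI1 is dim on the parental arrays, with a mean of 5.80 below the filter level and a range of 0.60. SNAI1 entered this search only through its Snai1ER arrays. Among the 11050 genes past the filter, 380 had an r of at least 0.80 with SNAI1 on the parental arrays. No link to SNAI1 is therefore read from the genes named. Over 14 arrays, ESRP2 was closest to SLC37A3 (0.94), IGF2R (0.91) and SNORD30 (0.88), GRHL2 to POFUT1, GIT2 and OR5E1P (0.90 for each, and 0.74, 0.73 and 0.77 without the 2 farthest arrays), OVOL1 to LIPG (0.92), KAZN (0.91) and CCL3 (0.87), and KLF5 to ZMYM3 (0.91), PLPP1 (0.85) and PDK2 (0.84). Without the 2 farthest arrays these read 0.82, 0.85 and 0.61 for OVOL1 and 0.82, 0.74 and 0.70 for KLF5, and 0.95, 0.87 and 0.87 for ESRP2. TWIST1 was closest to RAB7B (0.91), TMEM237 (0.90) and SKIC8 (0.89), which dropped to 0.75, 0.70 and 0.66 without 2 arrays, the day 1 hypoxia array with knockdown being one of them.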

How the data were processed

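RNA of 14 cultures was amplified and hybridised to whole-transcript GeneChip arrays, with 1 array for each condition. The deposited log2 values were made by the authors with RMA in Partek, with versions not given in the sources used here; scanner files were not used. In 29.6% of 33297 probe sets at least 2 arrays hold an equal value. Of the probe sets, 21214 are in the platform annotation, 19460 of them with 1 symbol. The arrays were quantile normalized again over all probe sets, and probe sets of a gene were then averaged (18417 genes). Genes with a mean at or above the 40th percentile were kept (11050). With 1 array per condition, treatments were compared by a 1.5-fold rule on both days. Knockdown was tested over 6 pairs with the pair as a block (5 residual df), knockdown by line by an interaction, and hypoxia minus TGFβ1 over 8 arrays, with limma 3.58.1 in R 4.3.3 (lmFit, eBayes, Benjamini-Hochberg, 0.05). The fits were tested on simulated data. Pairing comes from treatment and day in the labels. Array number limits the precision. Alternatives were other scalings, filters, folds, days, probe set rules, the block and leaving out arrays. The members and lists were chosen with earlier results of these data known. Named genes were the members, up to 4 genes per list with the largest differences past a rule, and the 3 genes most correlated with each member past the filter. CDH1, ACTA2, ELF3 and CLDN7 were named after their values were seen.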

Additional observations from a re-analysis of the deposited data

Results flagged for a closer look

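ZEB2, which lay below the filter on low values, had differences of opposite sign with ANGPTL4 knockdown in the lines, some of them very small. The difference was negative in both Snai1ER pairs (mean -0.11) and positive in all 4 parental pairs (mean 0.21), so that Snai1ER minus parental was -0.32. As deposited, the means were -0.18 and 0.53. On the shared distribution, the Snai1ER day 4 pair differed by only -0.02 and the hypoxia day 2 pair by 0.05. The largest parental difference, 0.41 on TGFβ1 day 2, came from 1 probe set (0.80, against 0.01 for the other). Single probe sets did not all follow: 1 probe set was higher with knockdown in the Snai1ER day 4 pair (by 0.06), and the other was lower in the hypoxia day 1 pair (-0.03). The limma interaction without a filter did not pass (adjusted p = 0.662, and 0.455 as deposited).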

How the results depend on the processing

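Counts moved with scaling and with single arrays. Over the 6 pairs, knockdown called 97 genes, against 14 as deposited, 1191 with arrays centred on their median, 326 with no replicate block and 2 with no TGFβ1 pairs, a choice made after seeing the data. Leaving out 1 pair gave 0 (hypoxia day 2) to 427 (hypoxia day 1). By line the count was 0, against 5 as deposited, 7 with no filter and 36 without the hypoxia day 1 pair, the range being 0 to 36. Hypoxia minus TGFβ1 called 561, against 292 as deposited, 1652 median-centred and 0 to 2519 without 1 array; 2519 came without the day 1 hypoxia array with knockdown. Members called there were 0, against 1 median-centred (GRHL2), 1 with a mean-variance trend (SNAI1) and 2 without that array (SNAI1, adjusted p = 0.0140, and OVOL1, 0.0249, limma). SNAI2 passed with knockdown when median-centred without a filter (-0.82, limma adjusted p = 0.0307), a combination chosen after seeing the data. Its adjusted p was 0.0307 to 0.346 over the settings run without a filter. Past the fold rule in TGFβ1, 0 members past the filter became 3 as deposited and 1 median-centred; with knockdown in TGFβ1, 0 became 2 as deposited, SNAI1 turning to 0.89, 1 with no filter and 1 on the second day alone. With knockdown in 4-OHT, 0 became 1 with no filter, 1 on the first day and 2 on the second; for the untreated lines 1 became 2 with no filter. Single days gave 1 member in hypoxia (second), 2 with knockdown in hypoxia (first) and 1 in 4-OHT (second). The cause was not tested. For single members, each result was counted once per comparison and setting, so the same members recur many times. Of these results, 470 kept their sign and call, which includes results called in neither setting. A further 30 that passed no threshold turned their sign, 13 moved and 5 newly passed a threshold. The remaining 1 reversed, turning its sign where a threshold was passed. Dim probe sets limit SNAI2, ZEB1, ZEB2 and, on parental arrays, SNAI1, which includes its calls above.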
